A study of Mus musculus with 2 samples.

Results

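Smooth muscle cells and Hhip myofibroblasts made up 91 of the 26153 tumour cells kept here (26710 were deposited). The library labelled STK25 wKO held 51 of them, 0.367% of its 13883 cells (exact 95% Clopper-Pearson interval 0.274 to 0.483%). The library labelled WT held 40, 0.326% of its 12270 cells (0.233 to 0.444%). These cells are called wKO members and WT members below, after the label of their library. Members were chosen by measured UMIs, unique molecular identifiers that each count a captured RNA molecule. A member had 200 genes or more and no more than 25% of its UMIs from mitochondrial genes. It had at least 3 UMIs over Myh11, Actg2, Cnn1 and Hhip together, and no fewer than over the pericyte genes Rgs5, Notch3, Kcnj8, Abcc9, Higd1b and Cspg4. It also had fewer than 12 UMIs over the epithelial genes Epcam, Krt8, Krt18 and Cldn7 and fewer than 2 over the endothelial genes Pecam1, Cdh5 and Flt1. The levels of the genes in this gate are therefore a description and not a finding.

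The tumours arose in the colon and rectum after azoxymethane and dextran sulphate sodium, in STK25 wKO mice, which lack the serine/threonine kinase gene Stk25 in the whole body, and in WT mice. Tumours of each genotype were pooled, dissociated with trypsin and made into 1 droplet library. Numbers, age, sex and strain of the mice were not given in the sources used here, and the deposited design text speaks of a sort on mCherry that the study's methods do not mention. With 1 library per genotype there was no replicate and no test. Intervals cover counting error only, and genotype cannot be told apart from pool, dissociation or run.

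The library labelled STK25 wKO was deeper over all cells, with a median of 2091 UMIs against 1383, but its members were not, with a median of 2663 UMIs (846 to 11769) against 2957 (649 to 12723). The libraries shared 230 barcodes, and 2 wKO members and 0 WT members had a barcode that also occurred in the other library. Stk25 itself had 15 UMIs in 13 of 51 wKO members and 5 UMIs in 4 of 40 WT members. The sources used here do not describe how the gene was disrupted, and counts from the 3′ end may not see it.

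Smooth muscle cells form the muscle coats of the colon and the thin muscle sheet under its mucosa. They contract as myosin slides on actin filaments that are tethered to dense bodies and membrane plaques. Many of their contractile genes are switched on by serum response factor and its cofactor myocardin, through a short promoter element, the CArG box. Hhip, a membrane protein that traps Hedgehog ligands and is itself a Hedgehog target, marks myofibroblasts and muscle of the gut wall. The ligands come from the epithelium.

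Sequences of 3 promoters are shown because they carry the CArG box of contractile genes that the members expressed. RefSeq windows on GRCm38.p6, the mm10 assembly, reach from 250 bases before to 50 bases after each annotated start. They matched 33 of the 39 genes of a contractile list, in 43 windows. A CArG box, whose pattern reads the same on both strands, stood in 7 of these windows (16.3%) and in 6 genes, Myl9, Vcl, Myl6, Fhl1, Filip1l and Ldb3, against 535 of 32851 windows of all genes (1.63%). Capitals mark the box, whose first base lies 161 bases before the start in Myl9, 227 in Vcl and 50 at an annotated start of Myl6. A match is a description of letters and not a bound site.
Myl9, chr2:156775214-156775513, plus strand: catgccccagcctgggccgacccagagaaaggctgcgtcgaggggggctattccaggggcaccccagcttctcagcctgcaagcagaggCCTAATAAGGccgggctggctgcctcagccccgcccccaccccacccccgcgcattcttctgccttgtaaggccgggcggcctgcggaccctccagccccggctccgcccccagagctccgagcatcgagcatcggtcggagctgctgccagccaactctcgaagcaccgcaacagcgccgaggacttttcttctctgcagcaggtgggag
Vcl, chr14:20929148-20929447, plus strand: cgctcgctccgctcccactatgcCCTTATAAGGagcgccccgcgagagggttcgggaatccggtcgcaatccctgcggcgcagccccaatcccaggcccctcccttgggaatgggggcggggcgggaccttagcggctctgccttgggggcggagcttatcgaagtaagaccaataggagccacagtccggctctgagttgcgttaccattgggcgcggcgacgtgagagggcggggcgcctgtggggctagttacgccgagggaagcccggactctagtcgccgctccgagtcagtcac
Myl6, chr10:128492960-128493259, minus strand: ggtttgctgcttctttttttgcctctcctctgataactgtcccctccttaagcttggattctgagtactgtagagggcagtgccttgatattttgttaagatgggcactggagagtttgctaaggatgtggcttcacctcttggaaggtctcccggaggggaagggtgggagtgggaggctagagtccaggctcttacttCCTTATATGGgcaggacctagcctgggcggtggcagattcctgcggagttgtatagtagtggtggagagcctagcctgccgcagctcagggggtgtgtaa

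Contractile genes outside the gate had a higher median share in members than in the other cells compared, with ranges that overlapped those of pericytes. The 36 such genes took a median of 2.49% of the UMIs of wKO members (range 0.309 to 15.7%) and of 2.28% of those of WT members (0.106 to 9.71%). In pericytes the median was 0.762% in the library labelled STK25 wKO (82 cells, highest 5.32%) and 0.844% in the library labelled WT (44 cells, highest 4.18%), so the median member lay within the pericyte range. In fibroblasts it was 0.359% (662 wKO cells, highest 2.37%) and 0.350% (504 WT cells, highest 1.62%), and in B cells 0.139% (208 wKO cells) and 0.143% (216 WT cells). Not every cell fitted the name: 3 of 51 wKO members and 7 of 40 WT members did not exceed the highest B cell of their library. No UMI of Acta2 or Tagln, the most abundant contractile genes, was seen in 8 wKO members and 8 WT members.

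The marker genes were spread unevenly over the members. Myh11, the smooth muscle myosin heavy chain, was seen in 48 of 51 wKO members and 38 of 40 WT members, and in 1.92% of wKO and 0.463% of WT B cells, which should lack it. Actg2, the enteric smooth muscle actin, was seen in 29 wKO members and 19 WT members. Cnn1, the thin filament protein calponin, was seen in 19 and 7, and Hhip in 14 and 14 wKO and WT members. Des, the muscle intermediate filament desmin, is not in the gate. It was seen in 24 of 51 wKO members (47.1%, 32.9 to 61.5%) and 7 of 40 WT members (17.5%, 7.34 to 32.8%). No B cell had a UMI of Actg2, Cnn1, Hhip or Des, which allows shares of up to 1.44% in wKO and 1.39% in WT B cells. With each cell thinned to 1000 UMIs, which left out 1 wKO and 3 WT members, Des was seen in 28.0% of wKO and 16.2% of WT members. Hhip was then seen in 22.0% of wKO and 16.2% of WT members, whereas the unthinned shares were in the opposite order, 27.5% (15.9 to 41.7%) and 35.0% (20.6 to 51.7%).

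**Figure D1:**
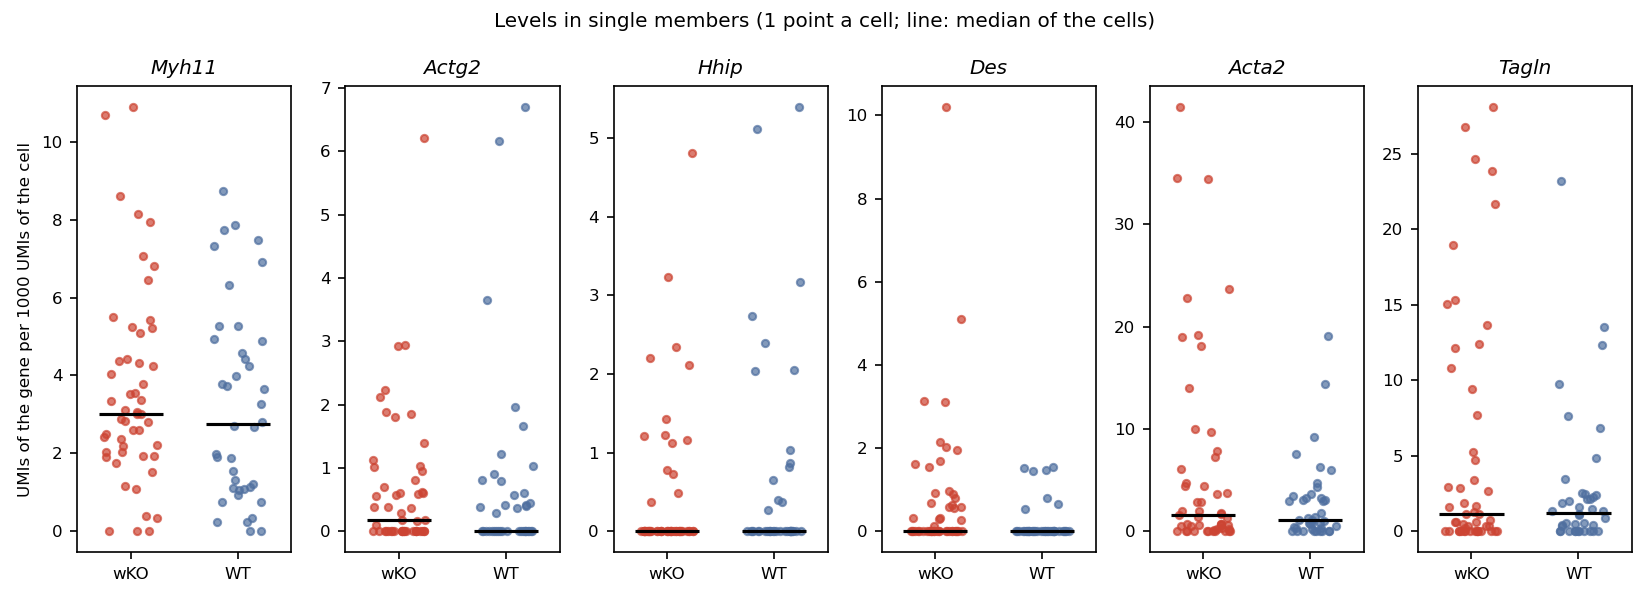
UMIs of 6 genes per 1000 UMIs of the cell (vertical axes, linear, each with its own scale) in the 51 members of the library labelled STK25 wKO and the 40 of the library labelled WT, 1 point a cell, with a line at the median. Medians of Myh11 lay at 3.01 in wKO and 2.75 in WT members, whereas Acta2 reached 41.5 in a wKO member and at most 19.1 in a WT member.

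Many members, above all of the library labelled WT, lay near the threshold of the gate. A marker sum of exactly 3, 4 and 5 was found in 6, 3 and 1 cells of the library labelled STK25 wKO and in 8, 2 and 7 of the library labelled WT. Just outside it, 19 wKO and 16 WT cells that met the other limits had a sum of 2. With a sum of at least 5, 42 wKO and 30 WT members would be left. Of 67 wKO and 51 WT cells with a sum of 3 or more, 11 wKO and 7 WT cells had more pericyte UMIs, 5 and 2 were over the epithelial limit and 6 and 6 over the endothelial one.

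Contractile genes and a set of other genes were higher in members than in pericytes and fibroblasts together. Of 3245 genes with at least 20 UMIs over all members, 299 (9.21%) were at least 2-fold higher in members in both libraries. These held 32 of the 37 contractile genes counted, and 29 of the 34 outside the gate. Genes were counted by their UMIs in members only, which favours genes that are high in members. Besides the 4 marker genes of the gate, the 10 highest were Itga8, Ryr2, Lmod1, Dtna, Myocd and Myom1. Itga8, an integrin subunit, stood at 677 CPM (counts per 1000000 UMIs) in wKO members, against 14.3 CPM in wKO pericytes and 0.883 in wKO fibroblasts. It stood at 329 CPM in WT members, against 36.3 CPM in WT pericytes and 0.641 in WT fibroblasts. A single wKO member held 55 of the 125 Itga8 UMIs of wKO members, and a single WT member 16 of the 44 of WT members. Myocd, myocardin itself, stood at 233 CPM (95% Poisson interval 169 to 314) in wKO members, against 4.78 in wKO pericytes, and at 367 CPM (271 to 485) in WT members, against 24.2 in WT pericytes. Both genes were thus far lower in pericytes than in members of either library. Ryr2, a calcium release channel, stood at 320 CPM in wKO and 217 CPM in WT members. Lmod1, a nucleator of actin filaments, stood at 292 CPM in wKO and 329 CPM in WT members, and Dtna, a partner of dystrophin, at 368 and 329. Dystrophin itself, Dmd, was seen in 41 of 51 wKO and 31 of 40 WT members. Dcn, the fibroblast proteoglycan decorin, stood at 590 CPM in wKO members against 7348 in wKO fibroblasts, and at 577 CPM in WT members against 7477 in WT fibroblasts.

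**Figure D2:**
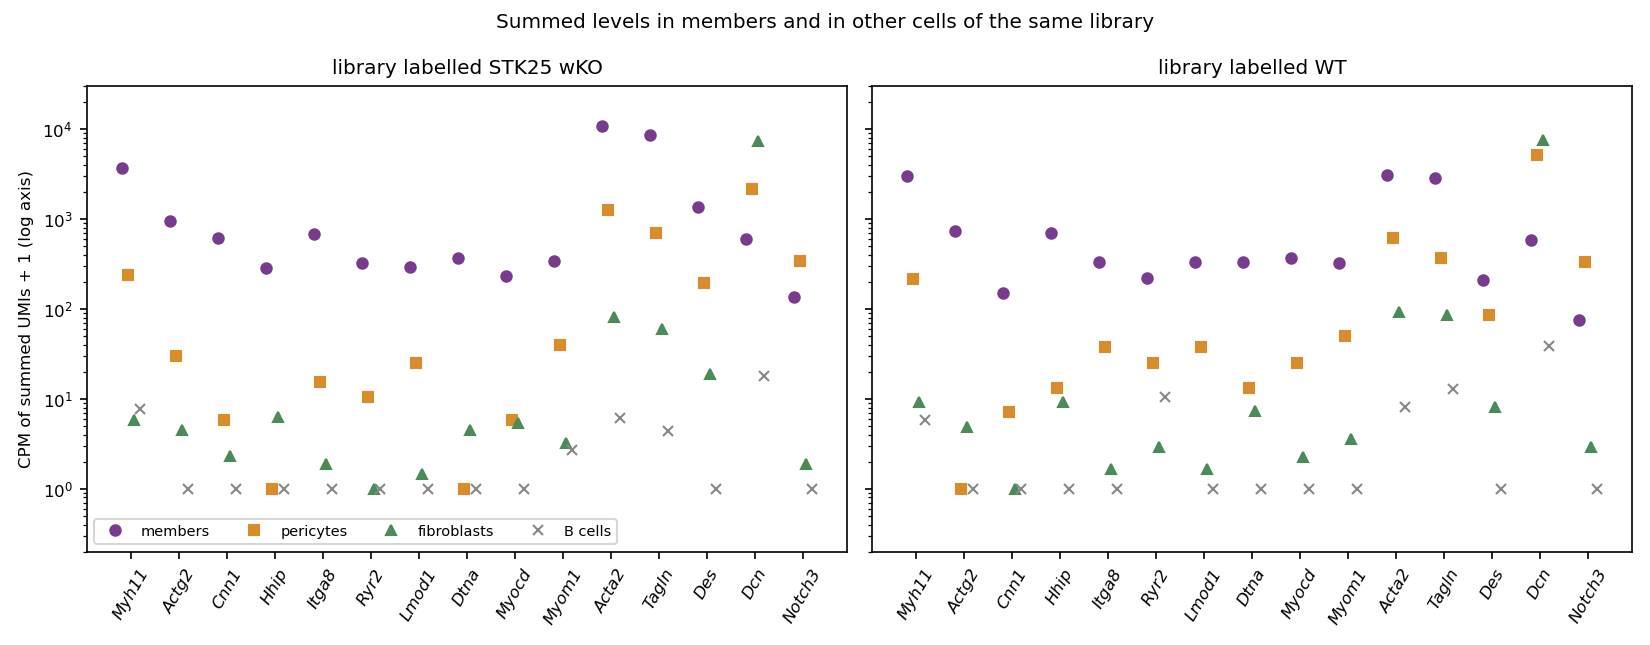
Summed levels of 15 genes (CPM plus 1, log axis) in members, pericytes, fibroblasts and B cells of the library labelled STK25 wKO (left) and the library labelled WT (right), 1 point a cell group. Myh11, Actg2, Cnn1 and Hhip were fixed by the choice of members, whereas Itga8 lay at 677 CPM in wKO and 329 CPM in WT members, over the pericytes of both libraries.

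Contractile genes as a group summed higher in wKO members, and the sum depended on a few wKO cells described below. The median member differed little, with 2.87% of its UMIs from these genes in wKO and 2.65% in WT members. The 39 listed genes summed to 10642 UMIs (57631 CPM) in wKO members, against 4156 UMIs (31123 CPM) in WT members, a log2 ratio of 0.89 (95% counting interval 0.84 to 0.94). Without the genes of the gate the log2 ratio was 0.94 (0.89 to 1.00). Of the 37 counted, 10 were at least 2-fold higher and 0 at least 2-fold lower in wKO members. Over all 3245 genes, 361 (11.1%) were that much higher and 371 (11.4%) that much lower. The median log2 ratio was 0.38 for the contractile genes and -0.05 for all genes. The same list had a summed log2 ratio of 0.16 in pericytes and 0.00 in fibroblasts.

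The 10 contractile genes at least 2-fold higher in wKO members were Pln, Des, Mustn1, Cnn1, Myl9, Acta2, Synm, Tpm2, Tagln and Pdlim7. Acta2, the vascular smooth muscle actin, had 1991 UMIs in wKO members (lowest 0, median 3, highest 488 a cell), against 413 UMIs in WT members (lowest 0, median 2, highest 79), a log2 ratio of 1.80 (1.65 to 1.96). Its ranges overlapped and its medians were close, so the summed difference lay at the upper end. Tagln, the actin-binding protein transgelin, had 1599 UMIs in wKO and 382 in WT members (1.60, 1.44 to 1.76). Myl9, the regulatory light chain with the CArG box printed above, had 662 UMIs in wKO and 127 in WT members (1.91, 1.64 to 2.20). Tpm2, a tropomyosin, had 630 in wKO and 149 in WT members (1.61, 1.35 to 1.88). These 4 proteins all belong to the actin filament or the myosin it engages. Mustn1, a small nuclear protein of the musculoskeletal system, had 276 UMIs in wKO and 36 in WT members (2.47, 1.97 to 3.01). Des had 250 UMIs in wKO and 28 in WT members (2.69, 2.12 to 3.31). Pln, phospholamban, a brake on the calcium pump, had 28 UMIs in 8 wKO members and 1 UMI in 1 WT member.

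Other parts of the same machine lay closer together. Myh11 had 678 UMIs in wKO members (lowest 0, median 6, highest 96 a cell) and 403 in WT members (lowest 0, median 5.5, highest 41), a log2 ratio of 0.28 (0.10 to 0.46). Mylk, the kinase that activates myosin light chain, had 266 in wKO and 150 in WT members (0.36, 0.06 to 0.66). Cald1, the actin-binding caldesmon, had 264 in wKO and 214 in WT members (-0.16, -0.43 to 0.10). Heavy chain, kinase and caldesmon thus had smaller log2 ratios than Acta2, Tagln, Myl9 and Tpm2. Vcl, vinculin of the membrane plaques, had 111 in wKO and 84 in WT members (-0.07, -0.49 to 0.36). Kcnma1, a potassium channel that calcium opens, had 140 in wKO and 158 in WT members (-0.64, -0.98 to -0.30). Without members with pericyte gene UMIs its log2 ratio was 1.23 and that of Acta2 -0.81, so both changed sign.

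A few cells of the library labelled STK25 wKO held most UMIs of the leading contractile genes. Among wKO members, 8 of 51 had at least 100 UMIs of Acta2 (118 to 488), and among WT members 0 of 40 did. The 8 cells held 88.3% of the Acta2, 86.2% of the Tagln, 86.1% of the Myl9 and 82.2% of the Tpm2 UMIs of wKO members, and 35.0% of all their UMIs. They were deep, with 4986 to 11769 UMIs, and Acta2 was also high per UMI, at 18.1 to 41.5 per 1000 UMIs, against at most 19.1 in any WT member. Contractile genes took 7.92 to 17.4% of their UMIs, against a median of 2.87% over all wKO and 2.65% over all WT members. Vim, the mesenchymal intermediate filament vimentin, was high in the same cells, which held 81.5% of its 546 UMIs in wKO members. Notch3, a receptor of vascular muscle and pericytes, was seen in 6 of the 8, and Hhip in 0. The cell with most contractile UMIs alone held 48.0% of the Des and 41.7% of the Actg2 UMIs of wKO members. Over all members, the pericyte and vascular muscle list (4 of 14 genes counted) took 0 to 0.265% of a wKO member's and 0 to 0.294% of a WT member's UMIs. Its part in the contractile values was not tested.

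The contractile values were also computed without these 8 cells, which were left out after their values were seen. This takes cells from wKO members only, while the WT members with most Acta2 stay, so lower values in the wKO members that remain follow in part from the choice. The contractile list then had a log2 ratio of -0.18. Acta2 stood at 1941 CPM in the other 43 wKO members, against 3093 CPM in the 40 WT members (-0.67, -0.91 to -0.44), and Tagln at 1841 against 2861 CPM (-0.64, -0.88 to -0.39). Myh11 stood at 3015 CPM in the other wKO members and 3018 CPM in WT members. The intervals of Myl9 (-0.31, -0.71 to 0.09) and Tpm2 (-0.26, -0.63 to 0.10) included 0. Des (1.48, 0.82 to 2.16) and Vim (0.72, 0.27 to 1.19) were still higher in wKO members. The 8 cells had held 180 of the 250 Des and 445 of the 546 Vim UMIs. Of the rest, 2 wKO members without Myh11 and with 45 and 32 UMIs of Dcn held 18 UMIs of Vim each. Another wKO member held 23 UMIs of Des, so few cells weighed on both values. Leaving out the 20 wKO and 18 WT members with a UMI of any pericyte gene gave the contractile list a log2 ratio of -0.17. All 8 cells rich in Acta2 were among these members, so this value is not separate from the one without the 8 cells.

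**Figure D3:**
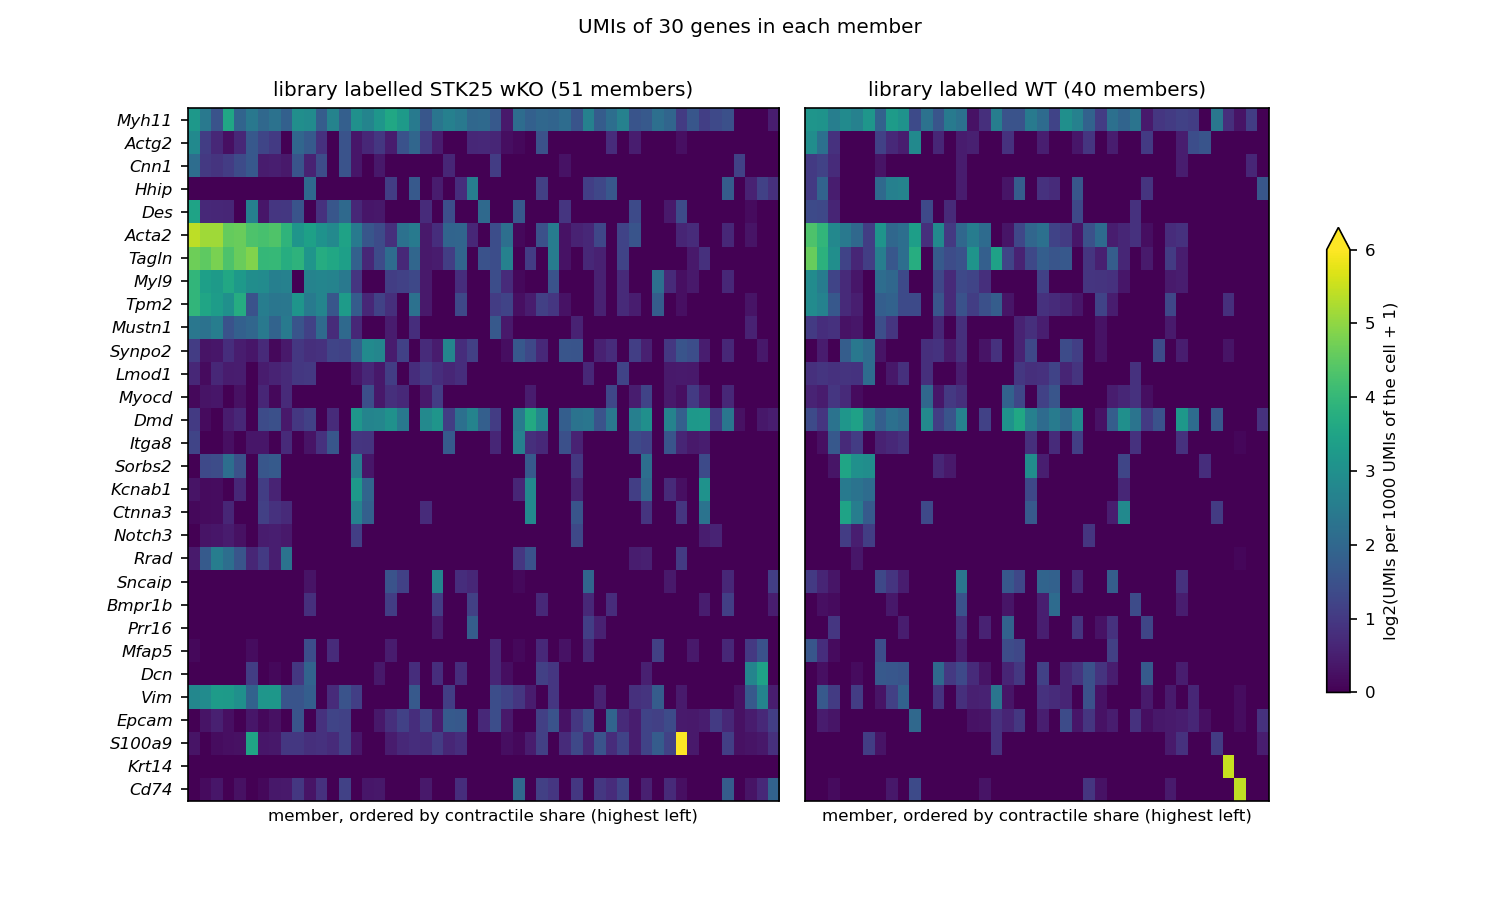
UMIs of 30 genes (rows) in each member (columns) as log2 of UMIs per 1000 UMIs of the cell plus 1, with values over 6 drawn as 6. The 51 wKO members are on the left and the 40 WT members on the right, each ordered by the contractile share of UMIs. Acta2, Tagln, Myl9, Tpm2 and Vim were bright in the leftmost wKO cells, the 8 with at least 100 Acta2 UMIs, in which Hhip was 0.

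Hhip, a gene of the gate, had 53 UMIs in wKO members (287 CPM, 215 to 375) and 93 in WT members (696 CPM, 562 to 853). Cells with it held 1 to 13 UMIs among wKO and 1 to 17 among WT members. Hhip was seen with Myh11 in 12 wKO and 13 WT members, with Actg2 in 7 wKO and 11 WT members, and with Des in 1 wKO and 4 WT members. All these genes but Des are in the gate, which favours cells that hold several of them. Ptch1, the receptor of Hedgehog ligands and a target of the pathway, had 28 UMIs in 11 wKO members and 41 UMIs in 18 WT members (log2 ratio -1.02, -1.77 to -0.29). Gas1, a coreceptor, had 17 in wKO and 7 in WT members, and Boc, another, had 12 in wKO and 17 in WT members. The transcription factor Gli3 had 10 in wKO and 13 in WT members, and Foxf1, a Hedgehog target of gut mesenchyme, 11 and 13. Of the 5 genes of the Hedgehog list counted besides Hhip, 0 were at least 2-fold higher and 1, Ptch1, at least 2-fold lower in wKO members (over all genes 11.1% and 11.4%), with a median log2 ratio of -0.83. The list without Hhip summed to 121 UMIs in wKO and 128 in WT members (-0.55, -0.92 to -0.18).

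Members with a Hhip UMI shared other genes in both libraries. The split uses a gene of the gate, and a cell without a Hhip UMI may still express it. Of the 3245 genes, 176 (5.42%) were at least 2-fold higher and 203 (6.26%) at least 2-fold lower in Hhip cells in both libraries. Sncaip, a synuclein-binding protein, had 32 UMIs in the 14 Hhip cells and 4 in the 37 other wKO members, and 54 UMIs in the 14 Hhip cells and 8 in the 26 other WT members. Bmpr1b, a receptor of bone morphogenetic proteins, had 17 UMIs in Hhip cells and 1 in other wKO members, and 15 in Hhip cells and 3 in other WT members. Mfap5, a microfibril protein of fibroblasts, had 25 in Hhip cells and 8 in other wKO members, and 30 in Hhip cells and 3 in other WT members. Igfbp6, Prr16, Plau, Adamts19, Fmo2 and Tmem134 completed the 10 with Hhip. Among the wKO Hhip cells, 2 without Myh11 held 45 and 32 UMIs of Dcn.

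Another group of genes was nearly absent from Hhip cells. Kcnab1, a potassium channel subunit, had 0 UMIs in Hhip cells of both libraries, against 119 UMIs in 16 other wKO members and 56 UMIs in 5 other WT members. Ctnna3, an alpha-catenin, had 0 UMIs in Hhip cells, against 95 UMIs in 15 other wKO members and 113 UMIs in 8 other WT members. Notch3 had 0 UMIs in Hhip cells, against 25 in other wKO and 10 in other WT members. Sorbs2, an adaptor at actin anchors, had 0 UMIs in Hhip cells and 132 in other wKO members, and 3 in Hhip cells and 126 in other WT members. These counts were concentrated in few cells: 2 WT members held 47 and 35 UMIs of Ctnna3 and 48 and 51 of Sorbs2. Hpse2, Ntrk3, Fgf13, Rrad, Irs2 and Col4a6 completed the 10 with the lowest ratios. Of the 8 wKO members rich in Acta2, 6 held 9 or more UMIs of Sorbs2.

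Contractile genes did not sort with Hhip in one direction. Among wKO members, Acta2 stood at 1755 CPM in Hhip cells and 13003 CPM in the others, a log2 ratio of CPM plus 1 of -2.89. Among WT members it stood at 5351 CPM in Hhip cells and 1697 CPM in the others, a log2 ratio of 1.66. Tagln (-2.90 in wKO, 2.02 in WT), Myl9 (-2.37 in wKO, 2.32 in WT) and Des (-5.89 in wKO, 2.87 in WT) also had opposite signs. The WT members with most Acta2, 3 cells with 45 to 79 UMIs, all had Hhip, and the 8 wKO members with most Acta2 had none. The difference between the libraries in this contrast was not tested.

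Summed matrix genes were lower in wKO members, although most single genes lay within 2-fold and the direction depended on which members were kept. Of 15 basement membrane genes counted, 0 were at least 2-fold higher and 3 at least 2-fold lower (over all genes 11.1% were higher and 11.4% lower), with a median log2 ratio of -0.46 and a summed ratio of -0.30 (-0.47 to -0.13). Lama2, the laminin chain of muscle basal laminae, had 23 UMIs in wKO and 60 in WT members (-1.85, -2.61 to -1.14), but its log2 ratio was 0.86 without members with pericyte gene UMIs. Lamb1, a laminin beta chain, had 18 in wKO and 48 in WT members (-1.88, -2.75 to -1.07), and -0.69 without those members. Col4a1, a chain of collagen IV, had 86 in wKO and 103 in WT members (-0.73, -1.16 to -0.30). Of 28 interstitial matrix genes counted, 3 were at least 2-fold higher and 6 at least 2-fold lower, with a median of -0.49 and a summed ratio of -0.34 (-0.44 to -0.23). Postn, the matricellular protein periostin, had 56 UMIs in 21 wKO members and 144 UMIs in 17 WT members (-1.83, -2.30 to -1.38). Hhip cells held 20 of the 56 UMIs in wKO and 114 of the 144 in WT members, so the WT count lay mostly with Hhip. Col3a1, a fibrillar collagen, had 153 in wKO and 193 in WT members (-0.80, -1.12 to -0.49), and 0.21 without members with pericyte gene UMIs. Thbs1, thrombospondin-1, had 135 in wKO and 48 in WT members (1.02, 0.54 to 1.53). In fibroblasts of the same libraries the log2 ratio was 0.11 for Postn and -0.02 for Lamb1. Both matrix lists turned positive without the members that had pericyte gene UMIs, at 0.35 for basement membrane and 0.23 for interstitial matrix.

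**Figure D4:**
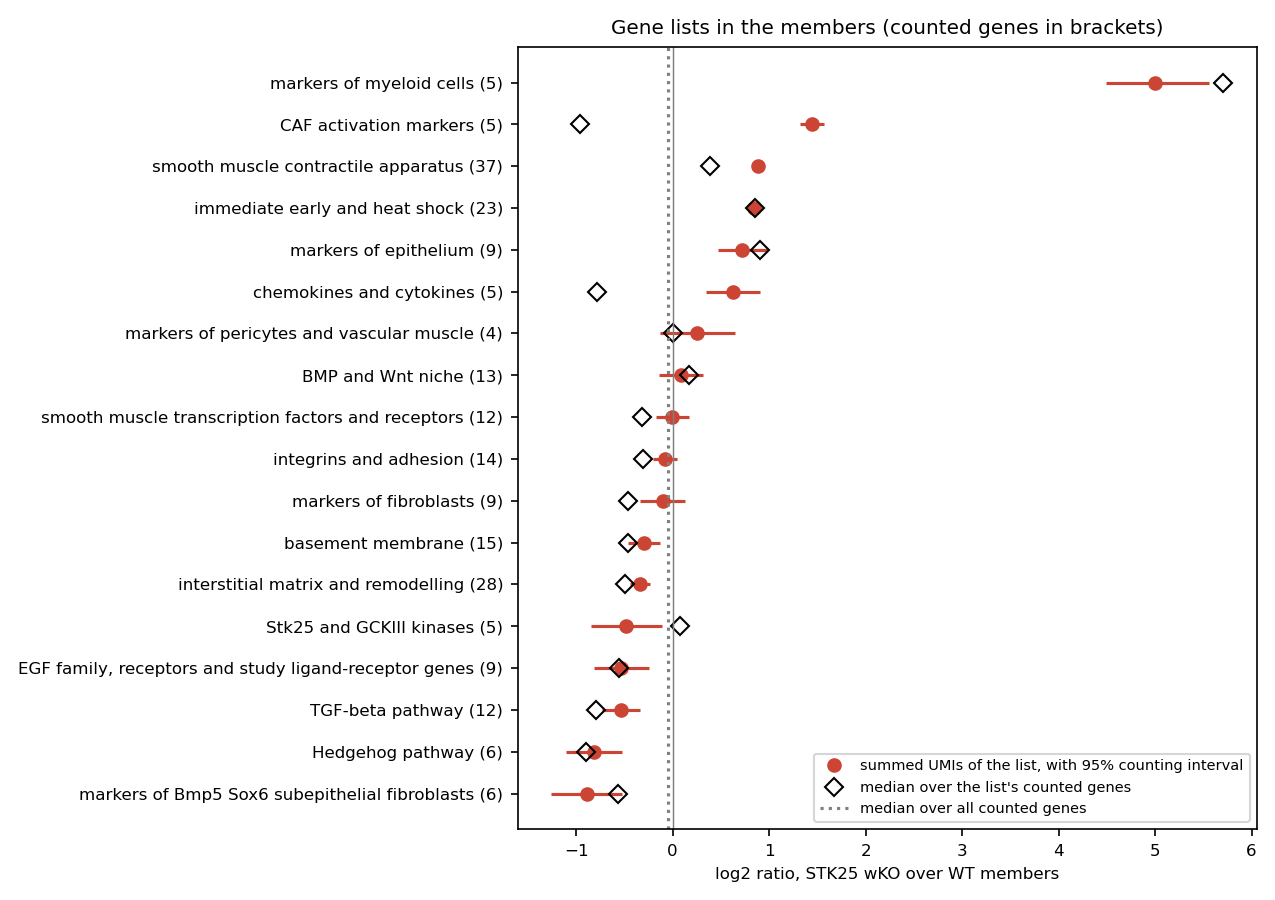
Log2 ratios (wKO over WT members) of gene lists: filled points give the summed UMIs with the 95% counting interval, open diamonds the median over the list's counted genes, and the dotted line the median of all counted genes (-0.05). The contractile list lay at 0.89 and the Hedgehog list at -0.81, both with genes of the gate (0.94 and -0.55 without them). For the CAF activation markers the sum (1.44) and the median (-0.96) had opposite signs.

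Of the markers by which the study follows activated cancer-associated fibroblasts (CAF), Acta2 and Vim summed higher in wKO members. The study read these markers in cultured human fibroblasts and tumour tissue, as protein and in part as RNA. The values here are mouse RNA in cells gated as smooth muscle, where Acta2 is also a contractile gene. They are therefore no check of the study's marker results. Fap and S100a4 were too low to count. Postn and Tnc, common companions that the study does not use, were lower. Of the 5 genes counted in a list of both kinds, Acta2 and Vim were at least 2-fold higher and Postn and Tnc at least 2-fold lower in wKO members. Over all genes, 11.1% were that much higher and 11.4% that much lower. Vim had 546 UMIs in 30 wKO members and 68 UMIs in 21 WT members (log2 ratio 2.54, 2.17 to 2.92). The 8 wKO members rich in Acta2 held 88.3% of the Acta2 and 81.5% of the Vim UMIs of wKO members. Without those 8 cells the log2 ratio was -0.67 for Acta2 and 0.72 for Vim. Tnc, the matrix glycoprotein tenascin C, had 17 in wKO and 34 in WT members (-1.47, -2.40 to -0.59). Fap, a fibroblast surface protease, had 1 UMI in wKO and 1 in WT members, and S100a4, a calcium-binding protein, 10 in wKO and 3 in WT members. Of 9 counted genes for EGF family members and ligand-receptor pairs, 1 was at least 2-fold higher and 2 at least 2-fold lower. Counts this small were near the shares over all genes, 11.1% and 11.4%. Egfr, the epidermal growth factor receptor, had 19 UMIs in 13 wKO members and 32 UMIs in 10 WT members (-1.22, -2.12 to -0.36). Its ligand Areg, amphiregulin, had 7 in wKO and 11 in WT members. Ackr3, an atypical chemokine receptor, had 4 in wKO and 24 in WT members (-3.05, -5.04 to -1.51), and its ligand Mif 54 in wKO and 31 in WT members. Pdgfra, a platelet-derived growth factor receptor, had 17 in wKO and 24 in WT members, and its ligand Pdgfa 19 and 6. Sum and median also differed in sign for the chemokine and cytokine list (summed log2 ratio 0.62, median -0.79, 5 counted) and for Stk25 and its related kinases (summed -0.48, median 0.07, 5 counted).

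Receptors and transcription factors of smooth muscle differed in both directions. Of 12 counted, 3 were at least 2-fold higher and 4 at least 2-fold lower in wKO members, with a median log2 ratio of -0.32. Over all genes, 11.1% were that much higher and 11.4% that much lower, the background for each list of this paragraph. Prkg1, the kinase through which nitric oxide relaxes muscle, had 345 UMIs in wKO and 247 in WT members (0.01, -0.23 to 0.26). Adra1a, an adrenergic receptor, had 28 UMIs in 7 wKO members and 2 UMIs in 2 WT members. Ednra, an endothelin receptor, had 26 in wKO and 45 in WT members (-1.26, -2.01 to -0.53). Myocd had 43 in wKO and 49 in WT members (-0.66, -1.28 to -0.04), and its log2 ratio was 0.41 without members with pericyte gene UMIs. Of 12 TGF-beta pathway genes counted, 1 was at least 2-fold higher and 2 at least 2-fold lower (median -0.79). Tgfbr2, the type II receptor, had 17 in wKO and 28 in WT members (-1.19, -2.15 to -0.27). Of 13 genes of the BMP and Wnt list, 4 were at least 2-fold higher and 1 at least 2-fold lower in wKO members, with a median log2 ratio of 0.17.

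Immediate early genes code for transcription factors and regulators that respond quickly to growth signals and stress. A list of immediate early and heat shock genes together summed higher in wKO members (log2 ratio 0.84, 0.76 to 0.92). Of 23 immediate early and heat shock genes, 11 were at least 2-fold higher and 0 at least 2-fold lower, with a median log2 ratio of 0.85. Over all genes, 11.1% were that much higher and 11.4% that much lower. Fos had 553 UMIs in wKO and 225 in WT members (0.83, 0.60 to 1.06), but its log2 ratio was -0.93 without members with pericyte gene UMIs and -0.12 without the 8 cells rich in Acta2. Junb had 393 in wKO and 78 in WT members (1.87, 1.51 to 2.23), and Atf3, a stress factor, 406 and 81 (1.86, 1.51 to 2.22). Klf2, a zinc finger factor, had 249 in wKO and 18 in WT members (3.32, 2.63 to 4.10). Without members with pericyte gene UMIs the log2 ratios were 0.02 for Junb, 0.10 for Atf3 and 1.64 for Klf2, and without the 8 cells 0.65, 1.06 and 1.74 in the same order. The heat shock chaperones differed in direction. Hspa1a had 64 in wKO and 67 in WT members and Hspa1b 55 and 77, whereas Hspa8 had 187 and 96 and Dnajb1 38 and 23. The list had a summed log2 ratio of 0.34 in pericytes and 0.03 in fibroblasts. Junb again followed the cells rich in Acta2, with a median of 5.005 per 1000 UMIs in those 8 and of 0 in the other 43 wKO members.

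Genes of other cell types differed beside these results. The 5 myeloid markers counted (of 9) were at least 2-fold higher in wKO members, against 11.1% of all genes. The myeloid list took 0.047 to 15.4% of a wKO member's UMIs and 0 to 0.337% of a WT member's. S100a9, a neutrophil calcium-binding protein, had 588 UMIs in 42 wKO members, 75.3% of them in 1 cell, and 8 UMIs in 7 WT members. B cells, which should lack it, had a S100a9 UMI in 68.3% of wKO and 5.56% of WT cells, so its presence was not particular to members. Some other immune genes were higher in WT members. Cd74, a gene of antigen presentation, had 80 UMIs in wKO and 544 in WT members, 537 of them in 1 cell. That cell, the deepest WT member with 12723 UMIs, had 6 UMIs of Ptprc and 0 of Acta2. H2-Ab1, another such gene, had 25 UMIs in wKO and 181 in WT members. Of 9 epithelial markers, 4 were at least 2-fold higher, against 11.1% of all genes. The epithelial list took 0.028 to 1.39% of a wKO member's UMIs and 0 to 0.770% of a WT member's. Epcam, an epithelial adhesion protein, was seen in 80.4% of wKO and 57.5% of WT members, and in 67.8% of wKO and 55.6% of WT B cells. Endothelial markers had 8 UMIs in wKO and 7 in WT members, and glial markers 4 and 2. The part of these cell types in the muscle gene values was not tested.

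Single cells set most of the extreme ratios. The 10 genes highest in wKO members included Retnlg, S100a8 and S100a9 of neutrophils, Rasd1, Rxfp2, Eya1, Sbspon, Oasl1 and Csmd1, and in 8 of the 10 genes 1 cell held at least 50% of the UMIs. Eya1, a transcriptional coactivator, and Rasd1, a small GTPase, were spread more widely, with 28 UMIs in 9 wKO members and 31 UMIs in 8, against 0 in WT members. The 10 genes lowest in wKO members were Krt16, Krt14, Krt6b, Krt13, Krt1, Krt6a, Lgals7, Sprr1a, Sprr1b and Lor, genes of stratified epithelium, each with at least 96.4% of its WT UMIs in 1 cell. Over all counted genes, 1 cell held at least 50% of the UMIs in 36 of the 361 higher and 51 of the 371 lower genes.

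**Figure D5:**
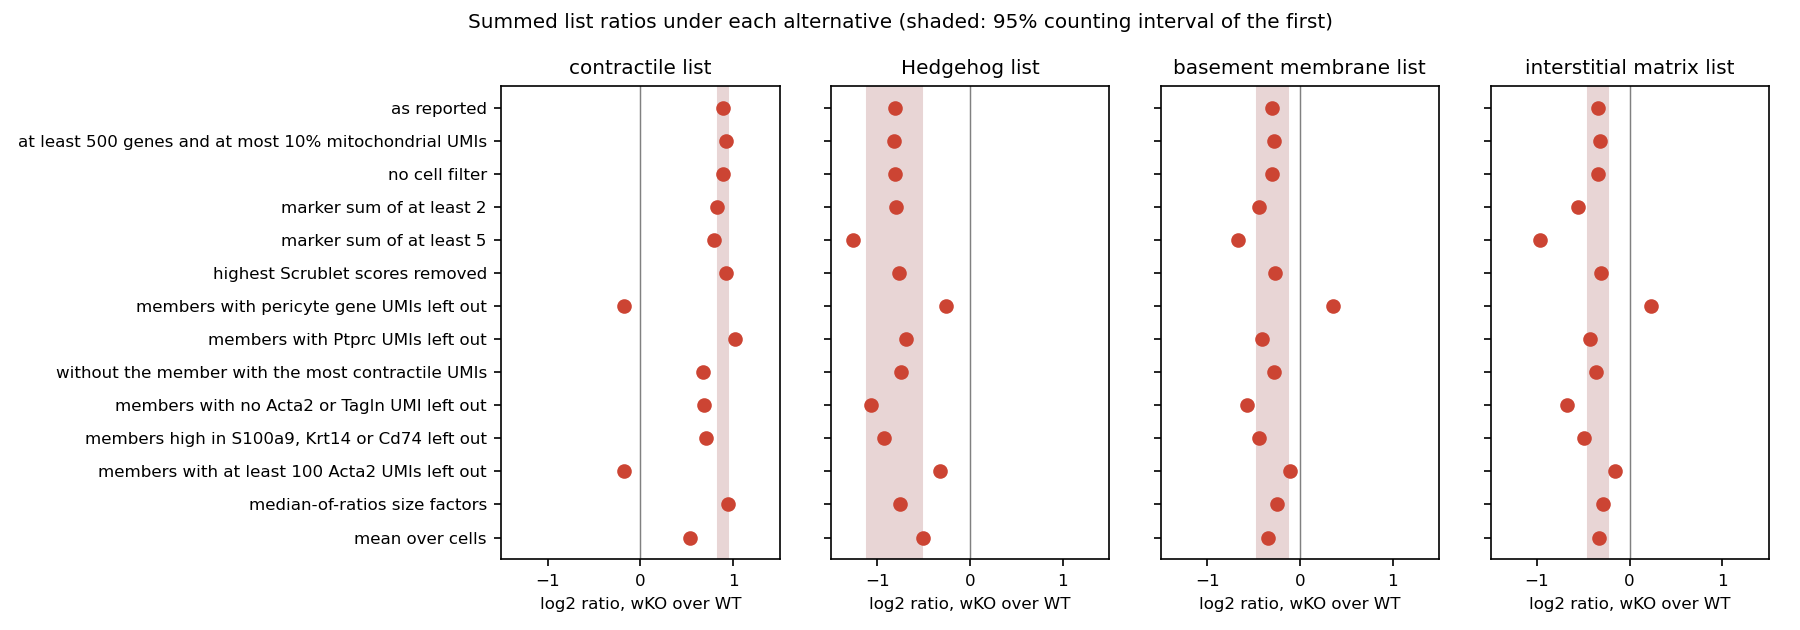
Log2 ratios (wKO over WT members) of the summed UMIs of 4 gene lists, as reported and under each other way of choosing or scaling the members, with shading for the 95% counting interval of the reported value. The contractile list was positive except without members with pericyte gene UMIs (-0.17) or with at least 100 Acta2 UMIs (-0.18), and the Hedgehog list was negative in each. Both lists include genes of the gate, Hhip in the Hedgehog list.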

How the data were processed

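Unnormalised UMI counts, 1 matrix for each of the 2 libraries, were deposited by the authors. The file header names Cell Ranger 7.1.0, and the submitters' notes name the mm10 build and, with no role, Seurat. Whether the chemistry was 10x 3′ v2 or v3 was not given in the sources used here. From these counts, members, pericytes (at least 3 UMIs over the 6 pericyte genes and more than over the 4 marker genes), fibroblasts (at least 3 over Dcn, Lum, Col1a1 and Pdgfra and under 3 over the pericyte and the marker genes) and B cells (at least 3 over Cd79a, Cd79b, Ms4a1 and Pax5, none of Cd3d or Cd3e) were gated in Python 3.11.15 (numpy 2.4.6, scipy 1.17.1). All of these groups met the cell filter and the epithelial and endothelial limits of members. B cells were also neither members nor pericytes and had under 3 UMIs over the fibroblast genes. No B cell could therefore hold 3 or more UMIs over the 4 marker genes. The B cells served as a measure of free RNA, within that limit.

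UMIs were summed per library, 184657 over the 51 members labelled STK25 wKO and 133536 over the 40 labelled WT, scaled to CPM (counts per 1000000 UMIs) and compared as ratios with exact 95% intervals (Poisson for levels, conditional binomial for ratios, Clopper-Pearson for shares). A gene was counted with at least 20 UMIs over all members, and 2-fold calls used CPM plus 1. The members and 24 gene lists were chosen with earlier results of these data known. Named genes were the 4 marker genes and Des, the 4 with most UMIs of each list, and the 10 most extreme of each contrast (at least 20 CPM in a library, without mitochondrial, ribosomal, predicted, immunoglobulin and haemoglobin genes); others named were chosen after their values were seen. Scrublet in scanpy 1.11.5 marked 0 doublets, so it did not work as a caller, and removal of its highest scores (11.1% and 9.81% of cells, 1 and 0 members) was an alternative. The interval code was tested on simulated counts.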

Additional observations from a re-analysis of the deposited data

How the results depend on the processing

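No paired analysis was possible because each group is 1 library, and for the same reason no replicate could be left out. Leaving out members by their Acta2, Tagln, S100a9, Krt14, Cd74 or contractile UMIs was chosen after seeing the data. The member share (ratio 1.13) lay at 0.950 to 1.25 under every alternative run for it. The contractile list (log2 ratio 0.89) was 0.82 and 0.79 with a marker sum of at least 2 and of at least 5, 1.02 without members with Ptprc UMIs, 0.67 without the cell with most contractile UMIs, 0.68 without members lacking Acta2 and Tagln, 0.71 without those high in S100a9, Krt14 or Cd74, 0.94 with median-of-ratios size factors and 0.54 as a mean over cells. A sum of at least 5 gave -1.27 for the Hedgehog, -0.67 for the basement membrane and -0.97 for the interstitial list, and a sum of at least 2 gave -0.55 for the last. As a mean over cells the Hedgehog list, which includes Hhip of the gate in all these alternatives, was -0.51. Without members lacking Acta2 and Tagln, basement membrane was -0.57 and interstitial matrix -0.67, and interstitial matrix was also -0.49 without members high in S100a9, Krt14 or Cd74.

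The members with pericyte gene UMIs included all 8 wKO members with at least 100 Acta2 UMIs. Without members with pericyte gene UMIs the contractile list was -0.17, Hedgehog -0.26, basement membrane 0.35 and interstitial matrix 0.23. Actg2 was then -1.12, Acta2 -0.81, Tagln -0.89, Myl9 -0.56, Tpm2 -0.45, Mylk -0.16, Kcnma1 1.23, Lama2 0.86, Col3a1 0.21, Myocd 0.41 and Fos -0.93. Without members with at least 100 Acta2 UMIs the contractile list was -0.18, Hedgehog -0.32, basement membrane -0.11 and interstitial matrix -0.15, and Myh11 -0.0014, Actg2 -0.95, Acta2 -0.67, Tagln -0.64, Myl9 -0.31, Tpm2 -0.26, Mylk -0.29 and Fos -0.12. Actg2 was also -0.30 without the cell with most contractile UMIs and -0.086 as a mean over cells. Genes at least 2-fold higher in wKO members (361) numbered 191 without members with pericyte gene UMIs, 224 without those with at least 100 Acta2 UMIs and 3461 with no filter on low counts, and those lower (371) numbered 133, 214 and 3602. Genes at least 2-fold higher or lower in Hhip cells of both libraries (379) numbered 169 without members with pericyte gene UMIs and 2245 with no filter, and genes higher in members than in pericytes and fibroblasts (299) numbered 144 and 743. The cause of these differences was not tested, beyond fewer cells and more genes.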
